A study of Mus musculus with 11 samples.

Results

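Retnla, the gene that encodes RELMα, was 1 of the 754 genes counted in the peritoneal macrophages of 11 mice, and it is the gene that the targeted allele of this study removes. Its row was read as named in the table, and no measured value entered that choice. The cells were sorted as CD11b+F4/80+ from female mice of 6 to 8 weeks that had received PBS or IL-4c intraperitoneally on days 0 and 2, and they were collected on day 4. IL-4c is IL-4 bound to an anti-IL-4 antibody, which prolongs its action in the body. In RαTd/Td mice, exons 2 to 4 of both Retnla copies are replaced by the fluorescent reporter TdTomato (Td), and the allele was made in C57BL/6 embryonic stem cells and recombined with a universally expressed cre deleter, so the deletion is not limited to macrophages. The groups were PBS-treated Rα+/+ (mice 1 and 2), PBS-treated RαTd/Td (mice 3 and 4), IL-4c-treated Rα+/+ (mice 5, 6 and 7) and IL-4c-treated RαTd/Td (mice 9, 10, 11 and 12). An IL-4c-treated Rα+/+ mouse that the study set aside was not analysed here. Its expression profile had grouped with the PBS-treated samples, and the study then found low RELMα in its peritoneal fluid and fewer peritoneal cells. The IL-4c-treated Rα+/+ mice were thus chosen partly on these expression data and on the protein that Retnla encodes. That choice bears on the levels and spread of this group and on every comparison that uses it.

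RELMα is a small secreted, cysteine-rich protein of the resistin-like family. In mouse macrophages its transcription follows IL-4 or IL-13 binding to a receptor that contains IL-4Rα, which activates Janus kinases and the transcription factor STAT6, and it is used together with arginase 1 (Arg1) and the chitinase-like proteins Ym1 (Chil3) and Ym2 (Chil4) as a mark of alternative, or M2, activation. The peritoneal cavity holds large resident and small monocyte-derived macrophages, and both were within the sort.

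Values are given in normalized counts, which are probe counts that the authors scaled to 4 housekeeping genes, and in which 30 stands in for every low value, called the floor here. A single factor per mouse turned them back into counts, whose sum over the genes above the floor ranged from 268858 to 574505 per mouse. The lowest value that could be measured therefore differed between mice, from 30.5 to 56.3 normalized counts. The position of the Retnla probe on the transcript is not given in the sources used here, and Td was not among the genes analysed.

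The upstream sequence of Retnla is shown because the gene is known as a direct STAT6 target, and those of Chil3 and Chil4 because their counts came next to it after IL-4c. Each sequence is the 250 bases before the annotated start (RefSeq, GRCm38.p6, 5′ to 3′ on the strand of the gene), from chr16:48842359-48842608 on the + strand for Retnla, chr3:106167565-106167814 on the - strand for Chil3 and chr3:106219480-106219729 on the - strand for Chil4. Capitals mark matches on either strand to 5 patterns, the STAT6-type TTCNNNNGAA, the general STAT-type TTCNNNGAA, the C/EBP-type TTGCNNAA, the ETS-type AGGAAGT and the TATA-type TATAAA.
Retnla: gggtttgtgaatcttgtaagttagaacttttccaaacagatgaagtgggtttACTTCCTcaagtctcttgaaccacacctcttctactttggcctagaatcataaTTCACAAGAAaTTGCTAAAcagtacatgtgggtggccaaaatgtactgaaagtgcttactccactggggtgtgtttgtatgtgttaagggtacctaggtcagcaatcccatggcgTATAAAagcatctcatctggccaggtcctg
Chil3: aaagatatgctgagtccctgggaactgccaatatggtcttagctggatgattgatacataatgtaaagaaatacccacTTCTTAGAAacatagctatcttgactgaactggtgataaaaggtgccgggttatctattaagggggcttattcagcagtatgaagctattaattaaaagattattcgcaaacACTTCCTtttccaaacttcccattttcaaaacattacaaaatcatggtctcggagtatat
Chil4: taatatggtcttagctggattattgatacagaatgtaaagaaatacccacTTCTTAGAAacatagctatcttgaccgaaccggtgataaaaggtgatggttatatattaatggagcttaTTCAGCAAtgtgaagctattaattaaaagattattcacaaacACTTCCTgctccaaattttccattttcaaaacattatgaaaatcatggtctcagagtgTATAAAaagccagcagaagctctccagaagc
The Retnla window held the STAT6-type letters TTCACAAGAA from 145 to 136 bases before the start. They were followed after 1 base by the C/EBP-type letters TTGCTAAA, from 134 to 127 bases before the start. The STAT6-type pattern was present in 5.85% of the 32851 promoter windows of the same length, the C/EBP-type pattern in 9.56%, and both in 0.609%. A C/EBP-type match was also present in the window of Chil4, on the opposite strand from 131 to 124 bases before the start. Another was in that of Rnase2a, from 217 to 210 bases before the start. The windows of Chil3, Chil4 and Rnase2a held no match to the STAT6-type pattern, while those of Chil3 and Chil4 held the STAT-type letters TTCTTAGAA (7.02% of all windows), at 172 and 200 bases before the start. An ETS-type match on the opposite strand was present in all 3 sequences shown (7.69% of all windows), and a TATA-type match lay 30 bases before the start of Retnla and 31 before that of Chil4 (12.4%). Arg1 had no entry among these windows. On chromosome 16 the neighbouring protein-coding genes of Retnla are its family members Retnlb and Retnlg.

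To ask how Retnla answered IL-4c, its level was compared between PBS-treated and IL-4c-treated Rα+/+ mice. After PBS, Retnla was at 4631 normalized counts in mouse 1 and 4141 in mouse 2. After IL-4c it was at 115675 in mouse 5, 147349 in mouse 6 and 171588 in mouse 7. The 3 IL-4c-treated mice that the study kept lay far above both PBS-treated mice, without overlap. The means were 4386 ± 346 (SD, n = 2) and 144871 ± 28039 (SD, n = 3) normalized counts, a rise of 5.03 on the log2 scale with 1 added to each value (SE 0.15, 95% confidence interval 4.69 to 5.37, adjusted p = 9.07e-09 from limma), or 32.7-fold between the geometric means. In this comparison 46.3% of the 445 genes tested were called, meaning an adjusted p of 0.05 or less, and 13.9% were called higher. Among the 445, only Chil3 had a smaller p-value, and the genes that rose more, Chil3, Chil4 and Rnase2a, were at the floor in at least 1 PBS-treated Rα+/+ mouse, which Retnla was not. The rise kept its call in all 11 fits that left out 1 mouse, with values from 4.90 to 5.18. In cells sorted in bulk, more cells that express a gene and more RNA per cell cannot be told apart.

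Retnla was thus measurable in these macrophages without added IL-4. Its rank among the 754 genes was 25 and 26 after PBS and 1 in each of the 3 IL-4c-treated Rα+/+ mice. The ranks are of probe counts, and probes differ in efficiency, so they do not order the genes by transcript number. The probe counts behind the normalized values were 2880 in mouse 1, 5522 in mouse 2 and between 101028 and 147909 in mice 5 to 7. Counting error alone is 1.86% and 1.35% of the value in the PBS-treated mice and at most 0.315% in the IL-4c-treated mice, far under the spread between mice of 7.89% and 19.4% (SD over mean).

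**Figure D1:**
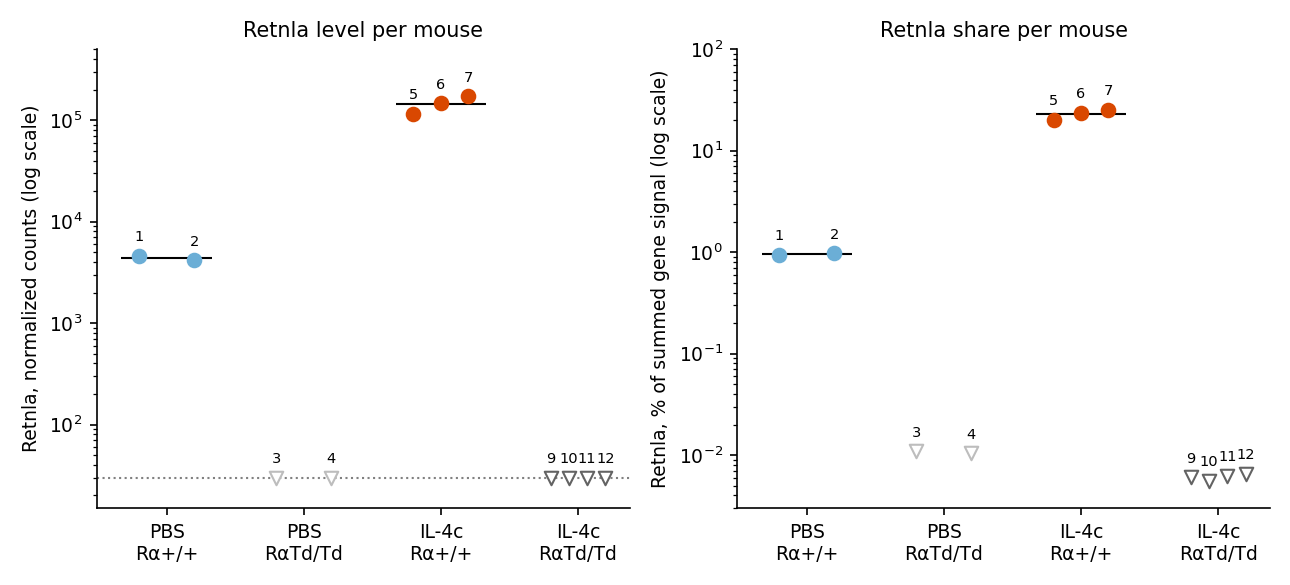
Retnla in each of the 11 mice, in normalized counts (left, log axis) and as a percentage of the summed signal of all genes (right, log axis), by group. Filled circles are measured values, with mouse numbers above them and black lines at group means, and open triangles are mice at the floor of 30 (dotted line), drawn on the right at the upper limit of the share. The 3 IL-4c-treated Rα+/+ mice lie between 115675 and 171588 normalized counts, and all 6 RαTd/Td mice are at the floor.

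To check the targeted allele, Retnla was compared between genotypes under each treatment. It was at the floor in all 6 RαTd/Td mice, 2 after PBS and 4 after IL-4c, so no level can be given there. Against the lowest values that could be measured in those mice, Retnla was at least 77.9-fold lower in RαTd/Td than in Rα+/+ mice after PBS (adjusted p = 1.58e-09 from limma, with 9.66% of genes called and 1.57% called lower). The difference was at least 4466-fold after IL-4c (adjusted p = 8.06e-13, with 2.7% of genes called and 1.12% called lower). No other gene had a smaller p-value or a larger fall in either comparison. Retnla went against the labelled genotype in none of the 11 mice, and the genotypes did not overlap. The difference between the genotypes in the IL-4c response, a fall of 5.03 on the log2 scale (SE 0.21, adjusted p = 3.66e-07, with 2.02% of genes called, 0.674% higher and 1.35% lower), has the size of the Rα+/+ response itself, since both RαTd/Td groups were at the floor. Its SE and p-value come from the same pooled spread and have the same limit.

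The share of Retnla in the summed signal of all genes was computed to set its level against that of all other genes of the panel together. It was 0.946% in mouse 1 and 0.975% in mouse 2. After IL-4c it was 20.3% in mouse 5, 23.6% in mouse 6 and 25.3% in mouse 7. A single gene thus held over 20% of the signal in each IL-4c-treated Rα+/+ mouse and under 1% in each PBS-treated one. The means were 0.960% ± 0.021 (SD, n = 2) and 23.0% ± 2.55 (SD, n = 3), a difference of 22.1 percentage points (exact permutation test, two-sided p = 0.1, below which 10 arrangements of 5 mice cannot go). The RαTd/Td share was below 0.0109% and 0.0105% after PBS and below limits between 0.00561% and 0.00657% after IL-4c, where the limit is the lowest measurable value over the summed signal.

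The summed signal of all genes rose by 167544 normalized counts from PBS to IL-4c in Rα+/+ mice, from a mean of 457150 ± 46083 (SD, n = 2) to 624694 ± 53957 (SD, n = 3). With 2 mice against 3 the exact permutation test gave a two-sided p of 0.1, the smallest that its 10 arrangements allow. Of the rise of 167544 normalized counts, Retnla made up 140485, or 83.8%. The RαTd/Td sum was 526394 ± 17164 (SD, n = 2) after PBS and 525062 ± 20293 (SD, n = 4) after IL-4c. After IL-4c all 3 Rα+/+ mice lay above all 4 RαTd/Td mice in summed signal (exact permutation test, two-sided p = 0.0286, below which 35 arrangements cannot go). The sum includes Retnla, which RαTd/Td mice lack by design, so this order and its p-value were partly built in. Without Retnla the order of the means turned, to 479823 ± 26050 (SD, n = 3) in Rα+/+ and 525032 ± 20293 (SD, n = 4) in RαTd/Td mice, a difference that did not pass the test (exact permutation test, two-sided p = 0.0857). After PBS the sums of the other genes were 452764 ± 45737 and 526364 ± 17164 (SD, n = 2 each), where the smallest possible p of the exact permutation test is 0.333.

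**Figure D2:**
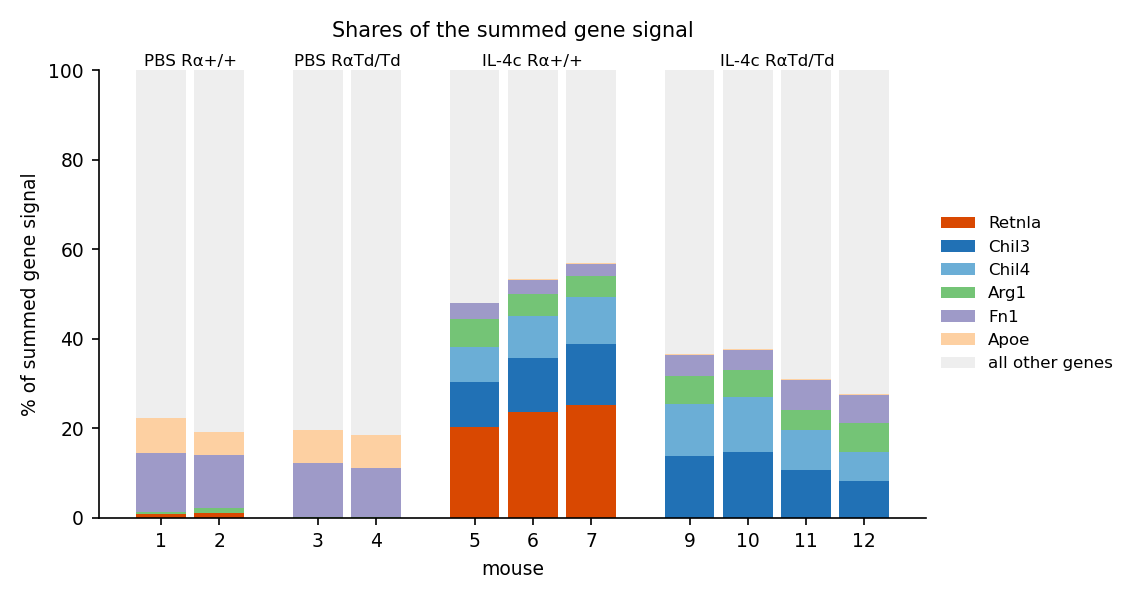
Percentage of the summed gene signal held by Retnla, Chil3, Chil4, Arg1, Fn1 and Apoe and by all other genes in each of the 11 mice (bars stacked to 100%), by group. Retnla holds 20.3% to 25.3% in mice 5 to 7 and is at the floor in mice 3, 4 and 9 to 12, while Fn1 and Apoe lead in the PBS-treated mice of both genotypes.

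The genes with the largest shares changed with treatment. After PBS the first places in Rα+/+ mice were held by Fn1 (fibronectin) with 12.6% ± 1.02 and Apoe (apolipoprotein E) with 6.51% ± 1.87, followed by the complement gene C1qc, Alox15 and Crip1 (SD, n = 2). Fn1 and Apoe also led in PBS-treated RαTd/Td mice, with 11.5% ± 0.770 and 7.48% ± 0.0146 (SD, n = 2), followed by C4a, C1qc and Cd74. After IL-4c the order in Rα+/+ mice was Retnla, Chil3 with 11.8% ± 1.76, Chil4 with 9.29% ± 1.37, Arg1 with 5.25% ± 0.795 and Fn1 with 3.20% ± 0.453 (SD, n = 3). In IL-4c-treated RαTd/Td mice the first place fell to Chil3 with 11.9% ± 2.95, and Chil4 (9.78% ± 2.72), Arg1 (5.79% ± 0.903), Fn1 (5.51% ± 1.08) and Crip1 (2.86% ± 0.862) followed (SD, n = 4). Retnla, Chil3, Chil4 and Arg1 together held 49.4% ± 4.90 of the signal in IL-4c-treated Rα+/+ mice and 27.5% ± 5.78 in RαTd/Td mice. The 3 genes other than Retnla held 26.4% ± 2.37 and 27.5% ± 5.78 (n = 3 and 4), shares whose whole includes Retnla in one genotype far more than in the other. Of the signal without Retnla they held 34.4% ± 4.18 in Rα+/+ and 27.5% ± 5.78 in RαTd/Td mice (SD, n = 3 and 4), a difference that did not pass the exact permutation test (two-sided p = 0.2).

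The size of the Retnla response was set against 10 scales, since a gene that holds so much of the signal also moves any scale built from the total. Per count of Eef1g, Gusb, Oaz1 or Rpl19 alone, the 4 housekeeping genes, the rise was 30.9-fold, 32.4-fold, 35.3-fold and 32.3-fold. With no normalization it was 30.6-fold, per median gene 39.8-fold, and as a share of the summed signal 23.9-fold. Per positive control probe, which counts synthetic targets added to each lane, it was 79.2-fold. The geometric mean of the positive controls was 853 to 1021 counts in lanes with PBS-treated samples and 301 to 623 counts in IL-4c-treated ones, and their part in that value was not tested. Retnla was higher in every IL-4c-treated than in every PBS-treated Rα+/+ mouse on all 10 scales, by 18.3-fold to 143-fold over single pairs of mice.

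**Figure D3:**
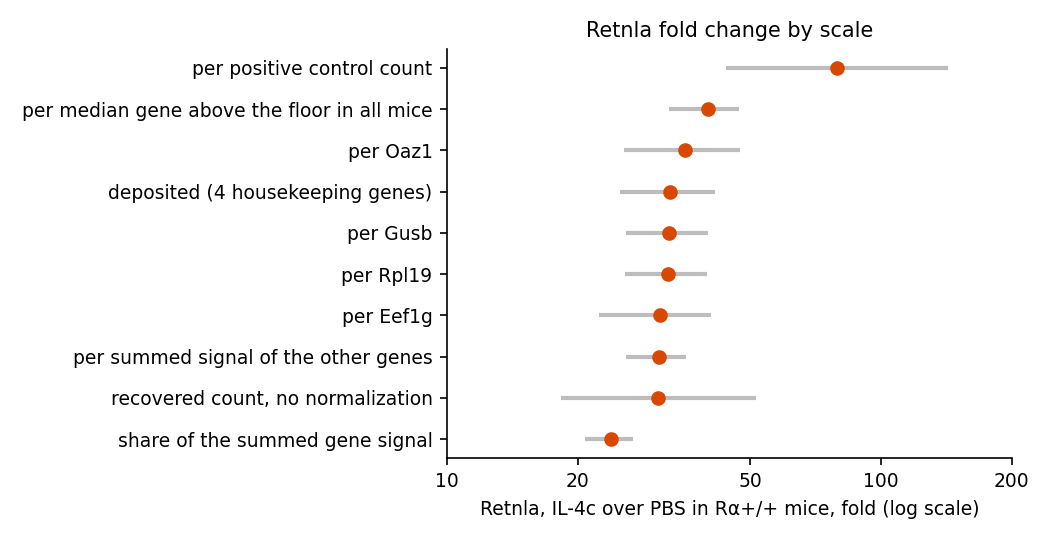
Fold change of Retnla from PBS to IL-4c in Rα+/+ mice on each of 10 scales (horizontal log axis). Points are ratios of geometric means over 3 and 2 mice, and grey bars span the lowest to the highest ratio of an IL-4c-treated to a PBS-treated mouse. The share of summed signal gives the smallest fold, 23.9, and the positive control probes give the largest, 79.2.

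The share also bore on the other genes. With each mouse scaled to its summed gene signal, the median of the 445 genes moved from -0.18 to -0.62 (log2, IL-4c against PBS) in Rα+/+ mice, and the number of genes called rose from 206 to 312. With Retnla left out of the sum, the median was -0.26 and 224 genes were called. The RαTd/Td mice had no measurable Retnla, and their median was -0.23 under each of these scales and on the deposited values, with 224, 230 and 231 genes called. Against the median gene, Retnla rose by 5.20 under the summed signal, by 5.21 on the deposited values and by 5.25 under the positive controls (log2). These scales apply 1 factor to all genes of a mouse, which nearly cancels against the median gene, so their closeness was fixed in advance. The value was 4.08 after quantile normalization and 5.03 with no filter.

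Among the IL-4c-treated Rα+/+ mice, Retnla varied more than most genes. Its coefficient of variation was 19.4%, while the median over the 339 genes above the floor in these mice was 9.96%, and 82.0% of the 339 lay at or below the value of Retnla. In mice 5, 6 and 7 Chil3 reached 56993, 75307 and 91581 normalized counts, and Chil4 reached 44973, 58644 and 72000. All 3 genes were lowest in mouse 5 and highest in mouse 7, an order that 68 of the other 338 genes (20.1%) shared. The ratio of Retnla to Chil3 was 2.03, 1.96 and 1.87, and that to Chil4 was 2.57, 2.51 and 2.38, with coefficients of variation of 4.00% and 3.88%, below that of Retnla itself. Arg1 did not follow this order, at 35072, 30921 and 31521, and the ratio of Retnla to Arg1 had a coefficient of variation of 24.4%. Chil3 and Chil4 are near-identical paralogs, so their probes may share targets, and their values are uncertain as those of separate genes.

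**Figure D4:**
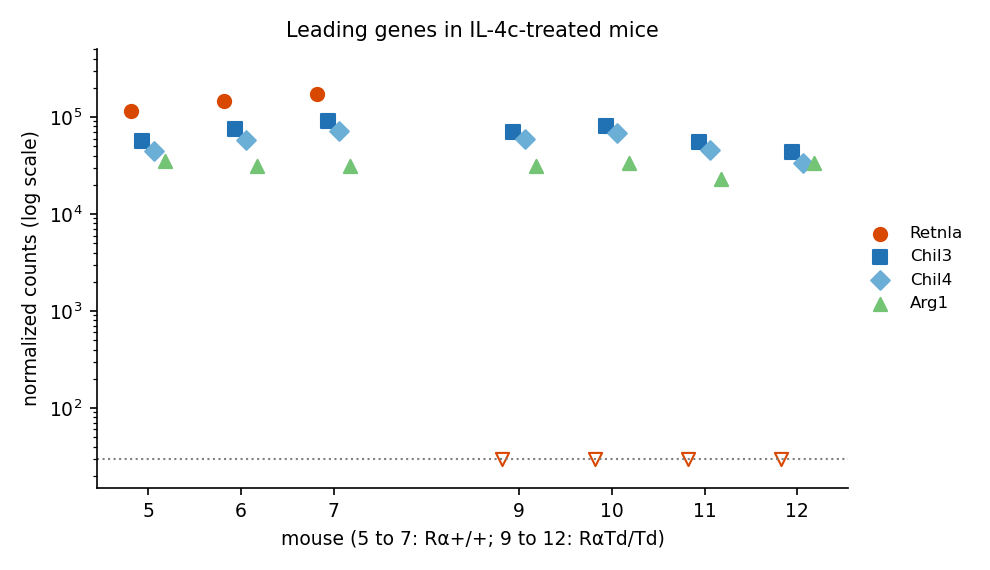
Retnla, Chil3, Chil4 and Arg1 in normalized counts (log axis) in each IL-4c-treated mouse, 3 Rα+/+ (5 to 7) and 4 RαTd/Td (9 to 12). Open triangles mark Retnla at the floor of 30 (dotted line). Retnla is highest in mice 5 to 7, and Chil3 is highest in mice 9 to 12, between 43527 and 81626.

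Over the 5 Rα+/+ mice, the genes whose log2 values were most like those of Retnla, among the other 308 tested for likeness, were Clic4, Hist2h2aa1, Top2a, Hist1h1c and Vav2. Top2a encodes a topoisomerase of dividing cells, and Hist2h2aa1 and Hist1h1c encode histones. Their Pearson correlations lay between 0.994 and 0.997. Those least like it were Pf4 (platelet factor 4), C1qa (complement) and Vamp2, between -0.994 and -0.993. The 5 mice form 2 separate treatment groups and share their normalization, so these values mostly reflect the difference between treatments, and 10 genes had a correlation above 0.99. Retnlb, the only other resistin-like gene among those analysed, was at the floor in all 11 mice.

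The genes upstream of Retnla were examined to see whether the receptor and its signalling chain changed with it. Of 23 listed genes of IL-4 receptor and STAT6 signalling, 8 were measured and 4 of these, the cytokines Il4 and Il13 and the inhibitors Socs1 and Socs2, were at the floor in all 11 mice. Il4ra, the receptor chain shared by IL-4 and IL-13, had 314 and 300.0 normalized counts after PBS (mice 1 and 2) and 197, 120 and 191 after IL-4c (mice 5 to 7). None of the 4 genes tested rose in Rα+/+ mice, and 2 fell, Il4ra by 0.89 and Stat6 by 0.59 (log2, adjusted p = 0.0142 and 0.00613 from limma). Of all genes in that comparison 13.9% were called higher and 32.4% lower. For RαTd/Td mice 3 of the 4 fell, Il4ra by 0.87, Stat6 by 0.43 and the inhibitor Socs3 by 1.02 (adjusted p = 0.0109, 0.0208 and 0.0029), where 51.9% of all genes were called and 36.6% were called lower (15.3% higher). The median over the 4 was -0.54 in Rα+/+ and -0.65 in RαTd/Td mice, beside -0.18 and -0.23 over all 445 genes. Scaled to the positive controls, a scale on which the median gene rose by 1.06 and 1.03, the changes of Il4ra, Stat6 and Socs3 turned positive. Of these only that of Stat6 in RαTd/Td mice was called (adjusted p = 0.00706 from limma). Centred on the median gene of each mouse, Stat6 was at -0.31 in Rα+/+ and -0.098 in RαTd/Td mice and not called (adjusted p = 0.0603 and 0.493), and after quantile normalization it was not called in RαTd/Td mice (0.165). Quantile normalization also ended the call of Il4ra in both genotypes (adjusted p = 0.0528 and 0.0925), as did a fit to the 2 compared groups alone in Rα+/+ mice (0.0604). The call of Il4ra was lost without mouse 1 or mouse 2 in Rα+/+ mice (up to adjusted p = 0.0919 without mouse 1) and without mouse 4 in RαTd/Td mice (0.112), and that of Stat6 in RαTd/Td mice without mouse 3 or mouse 4 (up to 0.104 without mouse 4).

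Of 15 listed transcription factors of M2 macrophages, 11 were measured and 3, Pparg, Egr2 and Gata3, were at the floor in all mice. In Rα+/+ mice 3 of the 8 tested rose, 4 fell and 1 did not pass, with a median of -0.35, where 46.3% of all genes were called, 13.9% higher and 32.4% lower. Klf4, which acts with STAT6 in alternative activation, was at 791 and 754 normalized counts after PBS and at 2074, 2300 and 2908 after IL-4c, a rise of 1.64 (log2, adjusted p = 0.00375). The groups did not overlap, and mouse 7 was highest for Klf4 as for Retnla. Cebpa, which encodes a C/EBP factor, fell by 1.67, and Cebpb fell by 0.65 (adjusted p = 0.00101 and 0.00191). Scaled to the positive controls Cebpb was at 0.62 instead, while Cebpa still fell, by 0.39, both without a call. Irf4 and Batf3 also rose, but Irf4 lost its call without mouse 2 or mouse 6 (up to adjusted p = 0.205 without mouse 2) and Batf3 without mouse 1 (0.0526) or with a single floor for all mice (0.642). Myc and Hif1a also fell, both changes turned positive without a call on the positive control scale, and Hif1a lost its call in 9 of 11 fits that left out a mouse (up to 0.207 without mouse 1). With IL-4c in RαTd/Td mice 1 of the 8 was called higher (Batf3) and 3 were called lower (Cebpa, Cebpb and Myc), with a median of -0.30. Batf3 was at the floor in both PBS-treated mice, so its rise was only bounded, at 1.04-fold or more. With a single floor for all mice its change was 0.16 (log2) and not called (adjusted p = 0.29 from limma). Of all genes in RαTd/Td mice 15.3% were called higher and 36.6% lower. Without mouse 4 Myc lost its call there (0.0998), and Klf4, at 0.71 and not called, was called without mouse 12 (0.97, adjusted p = 0.00899), with each mouse centred on its median gene (1.04, adjusted p = 0.0266), on the positive control scale (2.22, adjusted p = 8.62e-06) and without normalization (1.54, adjusted p = 0.00938). On the positive control scale all 3 falls turned positive, none with a call.

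Among the effector genes of M2 macrophages, 29 of 36 listed were measured, and 6, Ccl17, Ccl22, Vegfa, Il10, Il1rn and Flt1, were at the floor in all mice. In Rα+/+ mice 5 of the 23 tested rose with Retnla, where 13.9% of all genes were called higher. Chil3 rose at least 1902-fold, the eosinophil-associated ribonuclease Rnase2a at least 72.5-fold and Il1rl1, the IL-33 receptor, at least 11.4-fold, each from the floor in both PBS-treated mice (adjusted p = 1.74e-09, 9.59e-06 and 0.000136 from limma). Chil4 was at 53.1 normalized counts in mouse 1 and at the floor in mouse 2, and it rose by 10.46 (log2, adjusted p = 9.39e-09). Arg1 was at 1532 and 5062 normalized counts after PBS, so its level without IL-4c differed more between mice than that of Retnla did, and it rose by 3.54 (log2, adjusted p = 0.000136).

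A further 6 effector genes fell in Rα+/+ mice (32.4% of all genes were called lower). Cxcl13, a B cell chemoattractant, was at least 50.8-fold lower, at the floor in mice 5 to 7 (adjusted p = 0.000123). Clec7a (Dectin-1) fell by 3.28, Fn1 fell by 1.53 and Tgfb1 fell by 0.65 (log2, adjusted p = 0.00124, 0.000145 and 0.00109). Clec7a was above the floor in 1 of the 3 IL-4c-treated Rα+/+ mice, at 37.6 normalized counts, so the size of its fall depends on the floor. The other 2 were Ccl24, whose call was lost without mouse 1, 2 or 7 (up to adjusted p = 0.116 without mouse 2), and Alox15, whose call was lost without mouse 1, 2, 5 or 6 (up to 0.192 without mouse 1). On the positive control scale the changes of Tgfb1 and Alox15 were positive instead, without a call. The remaining 12 did not pass the test, and the median over the 23 was 0.

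In RαTd/Td mice, which lack Retnla, 9 of the same 23 effector genes rose and 5 fell, with a median of 0.75. Of all 445 genes there, 15.3% were called higher and 36.6% lower, with a median of -0.23. Chil3 rose at least 1084-fold, Chil4 at least 885-fold, Rnase2a at least 46.8-fold and Il1rl1 at least 4.19-fold, and Arg1 rose by 5.60 (log2, adjusted p = 1.33e-09, 7.24e-09, 5.94e-06, 0.000458 and 3.53e-06). Tgm2 (transglutaminase 2) rose by 2.59 (adjusted p = 0.000852), and by 1.89 without mouse 3, where it was at the floor. Mrc1, Cd274 and Ccl6 also rose, and each lost its call when mouse 3 was left out (adjusted p = 0.112, 0.0513 and 0.0538). Mrc1 lost it also without mouse 4 or 10, and Ccl6 without mouse 4. The genes that fell were Cxcl13, Clec7a, Fn1, Tgfb1 and Alox15, of which the last 3 had positive changes without a call on the positive control scale. Alox15 lost its call without mouse 3 or mouse 4 (up to 0.0938 without mouse 4).

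**Figure D5:**
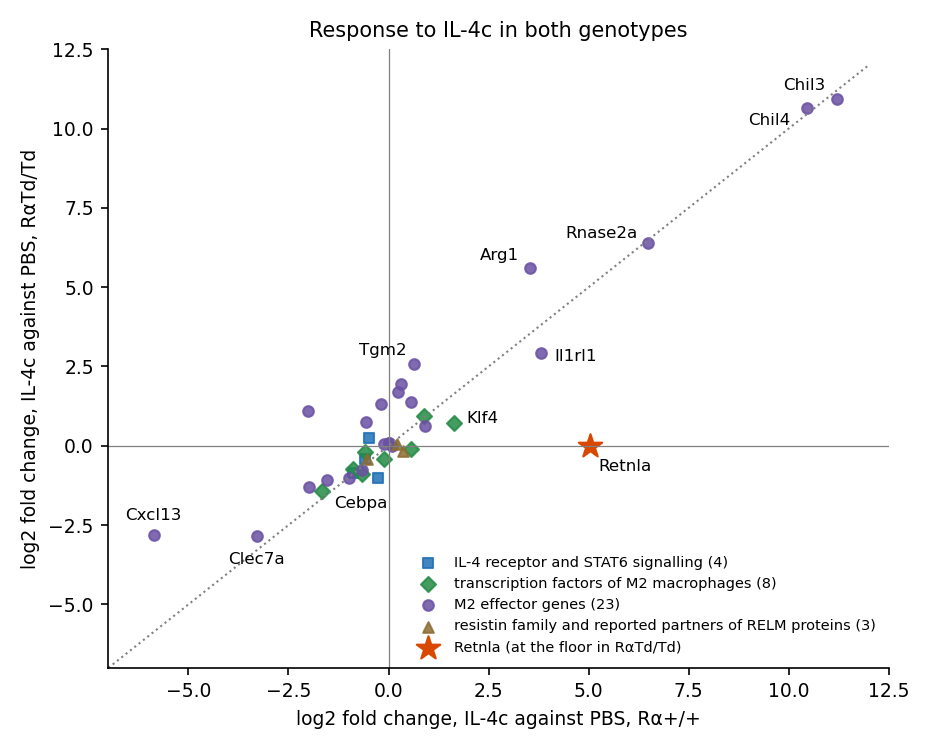
Log2 fold change from PBS to IL-4c in Rα+/+ mice (horizontal) and RαTd/Td mice (vertical) for the tested genes of 4 lists and Retnla, fitted on log2 values with 1 added. The dotted line marks equal values, and each point is 1 gene. Chil3, Chil4 and Rnase2a lie near the line, while Retnla is at 5.03 in Rα+/+ mice and at 0, from floor values, in RαTd/Td mice. Chil3 and Rnase2a were at the floor in every PBS-treated mouse, and Chil4 in all but mouse 1. Their nearness to the line therefore mostly reflects their levels after IL-4c.

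The genotypes were then compared for the same genes under each treatment. After IL-4c, Chil3, Chil4, Rnase2a and Arg1 differed by -0.27, -0.21, -0.09 and -0.11 between RαTd/Td and Rα+/+ mice (log2, SE 0.22, 0.28, 0.43 and 0.35), and none of the 4 passed the test (adjusted p = 0.52, 0.683, 0.947 and 0.88). The sign for Arg1 turned on some scales. Over the 43 tested genes of the signalling, transcription factor, effector, RELM partner and scavenger receptor lists, 2 were called, both higher in RαTd/Td mice (1.57% of all genes were), Cxcl13 (at least 5.37-fold, adjusted p = 0.0421) and the apoptotic cell receptor Mertk (0.78, log2, adjusted p = 0.0421). Each lost its call in 9 of the 11 fits that left out a mouse (up to 0.193 without mouse 5). After PBS none of the 43 was called higher, where 8.09% of all genes were, and 1 was called lower, Arg1, at 510 and 753 normalized counts in RαTd/Td mice and lower by 2.17 (log2, adjusted p = 0.0215). That call was lost without mouse 2, 3, 4 or 10 (up to 0.118 without mouse 3), and the value without mouse 2 was -1.30. For the difference in IL-4c response none of the 43 was called by limma, with 11 at an unadjusted p of 0.05 or less. Of all 445 genes 9 were called and 69 were at an unadjusted p of 0.05 or less, which is 15.5% beside 25.6% of the 43.

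Of the reported partners of RELM proteins, Btk and Tlr4 did not pass the test for IL-4c in either genotype, and Syk fell by 0.54 in Rα+/+ and 0.43 in RαTd/Td mice (log2, adjusted p = 0.00444 and 0.0101). The change of Syk turned positive on the positive control scale in both genotypes, with a call in RαTd/Td mice alone (adjusted p = 0.00666 from limma). On the deposited values its call in RαTd/Td mice was lost without mouse 3 (0.0832). Its call was also lost in both genotypes with each mouse centred on its median gene (-0.25 and -0.098, adjusted p = 0.113 and 0.5) and after quantile normalization (-0.22 and -0.095, adjusted p = 0.188 and 0.567). The apoptotic cell and scavenger receptors held 6 tested genes, and 5 of them fell in Rα+/+ mice, where 32.4% of all genes were called lower. Marco fell by 3.45, Stab1 fell by 2.84, Cd36 fell by 1.90 and Timd4 fell by 1.48 (log2, adjusted p = 0.00382, 0.0005, 0.00455 and 0.000174), and Cd36 lost its call without mouse 1 (0.078). On the positive control scale Cd36, at -0.63, and Timd4, at -0.20, were not called in Rα+/+ mice (adjusted p = 0.15 and 0.613). Of the 6, 3 fell in RαTd/Td mice, where 36.6% of all genes were called lower.

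Markers of other peritoneal cells were read in the same mice. The 6 measured eosinophil markers were at the floor in all 11 mice, and none of the 9 listed T cell markers was among the genes analysed. Of the 8 measured neutrophil markers, the 3 above the floor in any mouse summed to between 364 and 604 normalized counts in PBS-treated Rα+/+ mice. In IL-4c-treated ones the sum was between 90.0 and 118, where 90.0 means all 3 at the floor. Most of the sum after PBS was 1 gene, Csf3r, at 503 in mouse 1 and 251 in mouse 2. S100a8 had 70.8 and 82.5 there and was at the floor in mice 5 to 7, and S100a9 was at the floor in all Rα+/+ mice. Ly6g, Cxcr2, Mpo, Elane and Camp were at the floor in all 11 mice. Of the 2 measured B cell markers, Ms4a1 had 105 and 226 normalized counts in the PBS-treated Rα+/+ mice and was at the floor in the IL-4c-treated ones. The macrophage identity genes summed to between 26335 and 26914 after PBS and 24426 and 25827 after IL-4c in Rα+/+ mice. The markers of small peritoneal macrophages, MHC class II genes among them, summed to between 9279 and 11006 after PBS and 5169 and 8493 after IL-4c in Rα+/+ mice, and to between 26208 and 34452 and between 8177 and 20715 in RαTd/Td mice. The markers of large peritoneal macrophages summed to between 27688 and 33106 and between 19909 and 23466 in Rα+/+ mice. Their members did not move together. The mean of Alox15 went from 11335 to 5717 and that of Adgre1 from 6296 to 8924, while Gata6 was at 608 and 599. Of the 8 tested, 5 were called lower, 1 higher and 2 were not called, as among the 8 macrophage identity genes. Of all genes 32.4% were called lower and 13.9% higher. The part of these marker changes in the Retnla levels was not tested.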

How the data were processed

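Lysates of sorted CD11b+F4/80+ peritoneal macrophages from 11 mice were hybridized by the authors, in a single experiment, to a Nanostring panel of myeloid innate immunity genes (v2), which counts transcripts without amplification. The deposited gene values are linear signal, counts normalized by the authors to Eef1g, Gusb, Oaz1 and Rpl19 in Nanostring Advanced Analysis (its version is not given in the sources used here), with a floor of 30. The 14 control probes were deposited as raw counts. Values between the floor and 1000 were whole multiples of 1 factor per mouse within 0.1 counts, and dividing by it gave the counts used for depth. A count test was not used, since floor values are not reads. Every pair of mice of 1 group differed by more than counting noise would give (chi-square over its degrees of freedom, 4.70 or more).

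Genes with a mean above 30 (445 of 754) were fitted as log2(value + 1) in limma 3.58.1 (R 4.3.3), each of the 4 groups having 1 coefficient, and p-values were adjusted by Benjamini-Hochberg within each of 5 comparisons. Mice are the replicates, and 2 mice in each PBS group limit the precision. Sums and shares were tested by exact permutation. Folds against a group at the floor are limits computed against the geometric mean of its lowest measurable values. Correlations with Retnla used log2 values. In simulated data 79.0% of changes of 1 (log2) were recovered for IL-4c in Rα+/+ mice, and the factor was recovered in 11 of 11 columns.

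Named genes were Retnla, the 5 genes with the largest share in each group, the 5 most and 3 least correlated with Retnla, genes that rose more, and the listed genes measured. Members and lists were chosen with earlier results of these data known. Promoter windows were taken from RefSeq and searched with Python 3.11.15. Alternatives covered the filter, the added constant, the scaling, the groups fitted, the moderation, the methods' unpaired t-test, single mice left out and, chosen after seeing the data, a single floor of 56.3 for all mice.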

Additional observations from a re-analysis of the deposited data

Results flagged for a closer look

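Among the 4 IL-4c-treated RαTd/Td mice, 43 results, the values of 42 named and listed genes and the sum of the genes other than Retnla, were checked for a mouse that stood apart, and chance alone marks about 1 in 20 such groups. In mouse 12 Ccl24 was at 3689 normalized counts (group median 1000.1) and Ccl6 at 6261 (median 3312). Ccl7, at 34.4, and Cdh1, at 40.2, were above the floor in mouse 12 alone, and Cd209e, at 38.2, in mouse 10 alone, where values this close to the lowest measurable one carry little weight.

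The IL-4c response of Retnla differed between the genotypes by -5.03 on the log2 scale (RαTd/Td minus Rα+/+, tested as an interaction in limma), with both RαTd/Td groups at the floor.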

How the results depend on the processing

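No paired analysis was possible because the mice carry numbers that no 2 groups share. Retnla kept its direction and its call in all 4 comparisons under every alternative that could be fitted, with adjusted p at most 0.00473 for IL-4c in Rα+/+ mice, 0.0253 between genotypes after PBS and 1.55e-06 after IL-4c. With genes above 30 in every mouse Retnla drops out, so no value exists. Its log2 rise ranged from 4.08 (quantile normalization) to 6.31 (positive controls). With 1 mouse left out it ranged from 4.90 to 5.18, the genotype difference from -7.22 to -7.06 after PBS and from -12.32 to -12.04 after IL-4c, and the difference in response from -5.18 to -4.90. These fits against RαTd/Td groups at the floor depend on where it lies, and the folds they allow are the lower limits of 77.9 after PBS and 4466 after IL-4c. The rise in share was 29.5 percentage points over genes above the floor in all 11 mice plus Retnla, and 21.0 to 23.5 with 1 mouse left out. The difference in the sum of the other genes after PBS reversed to -146888 without normalization, and with 1 mouse left out it ranged from 41259 to 105941, and after IL-4c from 32685 to 58683.

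Of the 43 listed genes, the number called between genotypes after PBS (1 on the deposited values) was 0 with no filter or quantile normalization and 2 with median-gene centring. After IL-4c (2 on the deposited values) it was 0 with no filter, 0 with the single floor, 1 with 10 added or with median-gene centring, and 3 with quantile normalization. For the difference in response (0) it was 1 with centring and 2 with quantile normalization. With 1 mouse left out these counts ranged from 0 to 3, from 0 to 4 and from 0 to 2, and those for IL-4c from 20 to 27 in Rα+/+ and from 19 to 28 in RαTd/Td mice.

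Scaled to the positive controls, the fitted log2 changes with IL-4c turned positive in Rα+/+ mice for Il4ra (0.39), Stat6 (0.69), Cebpb (0.62), Myc (0.39), Hif1a (0.69), Alox15 (0.29), Tgfb1 (0.62) and Syk (0.74). In RαTd/Td mice they did so for Il4ra (0.64), Stat6 (1.08), Socs3 (0.48), Cebpa (0.0775), Cebpb (0.61), Myc (0.77), Fn1 (0.43), Alox15 (0.49), Tgfb1 (0.74) and Syk (1.08), and without normalization for Stat6 (0.40), Myc (0.10), Tgfb1 (0.0654) and Syk (0.41). Only Stat6 and Syk in RαTd/Td mice on the positive control scale were called among these positive values. Arg1 between genotypes after IL-4c was at 0.50 under quantile normalization, 0.14 under the summed signal, 0.0477 without normalization, and with 1 mouse left out it ranged from -0.170 to 0.0150 (without mouse 11). Of 52 calls of single genes other than Retnla, 17 were kept under every alternative run, 18 were lost without 1 of the mice, and 33 were lost or turned under at least 1 other setting. By the methods' t-test Il4ra was not called in Rα+/+ mice (unadjusted p = 0.0587). The causes were not tested.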
